A study of Homo sapiens with 3 samples.

Results

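The replication-dependent histone H3 genes examined here are 10 genes on chromosome 6, H3C1, H3C2, H3C3, H3C4, H3C6, H3C7, H3C8, H3C10, H3C11 and H3C12. Each was taken with every YTHDC1 ChIP-seq peak that came within 1000 bases of its annotated bounds, which gave 13 of the 6368 peaks of the data set. A peak lay near 7 of the 10 genes, and at each of these 7 genes 1 peak covered the end of the transcript. No peak was called within 1000 bases of H3C4, H3C6 or H3C8.

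YTHDC1 was immunoprecipitated from chromatin of A549 cells, which are a widely used human lung adenocarcinoma line, after crosslinking with formaldehyde. The 3 replicates form 1 group with no knockdown, drug or other treatment named in their labels, and no input or IgG library was analysed here. Reads of the replicates were pooled before peaks were called, so that each value below belongs to 1 pooled peak set, without a spread between replicates and without a test. The depth of each sample is unknown.

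Replication-dependent histone genes supply the histones that package new DNA in S phase. They are short genes without introns in the coding sequence, they lie in clusters, and their mRNAs end in a conserved stem-loop in place of a poly(A) tail. The stem-loop binding protein SLBP holds this stem-loop, and the U7 small nuclear ribonucleoprotein pairs with an element downstream of the cleavage site. YTHDC1 is the nuclear reader of N6-methyladenosine in RNA, and its ChIP-seq signal marks chromatin to which the protein was crosslinked, directly or through RNA and other proteins.

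The stem-loops are shown first, because the peaks lay over this end of the genes. They were read from the reference genome (GRCh37, the same assembly as hg19) on the strand of the mRNA, with T in place of U. The 16 bases of the stem-loop are in capitals, with 5 bases on both sides. The first 7 genes carried a peak over the stem-loop and the last 3 did not.
H3C1: gcaaaGGCTCTTTTCAGAGCCaccac
H3C2: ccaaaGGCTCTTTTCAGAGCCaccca
H3C3: gaaaaGGCTCTTTTCAGAGCCactca
H3C7: ccaaaGGCTCTTTTCAGAGCCaccaa
H3C10: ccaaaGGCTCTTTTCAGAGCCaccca
H3C11: caaaaGGCTCTTTTCAGAGCCcctca
H3C12: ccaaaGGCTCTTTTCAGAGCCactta
H3C4: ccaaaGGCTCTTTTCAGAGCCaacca
H3C6: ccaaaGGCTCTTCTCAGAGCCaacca
H3C8: aaaaaGGCTCTTTTAAGAGCCgccta
In this order the stem-loops begin and end at chr6:26021160-26021175 (plus strand), chr6:26031825-26031840 (minus strand), chr6:26046077-26046092 (plus strand), chr6:26250373-26250388 (minus strand), chr6:27778294-27778309 (plus strand), chr6:27839628-27839643 (minus strand), chr6:27858098-27858113 (minus strand), chr6:26197017-26197032 (minus strand), chr6:26225824-26225839 (plus strand) and chr6:26271151-26271166 (minus strand). They lie in the 3' UTR, 27 to 46 bases after the stop codon, and end 3 to 11 bases before the annotated transcript end.

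All 10 genes thus held a stem-loop, in 3 different sequences, and 8 genes had the most frequent one. Counted from 1 at its 5' end, H3C6 differed from the most frequent stem-loop by T8C and H3C8 by C10A, both in the loop. Neither H3C6 nor H3C8 had a peak, while H3C4, which also lacked a peak, had the most frequent stem-loop. The search used the core CTTTTNAG on the transcribed strand, between 100 bases before and 60 bases after the transcript end, with the 4 bases on either side able to pair with each other. That search found 9 of the 10 genes and 65 of 20163 protein-coding genes, or 0.322%. H3C6 was found with the wider core CTTNTNAG, tried after the data were seen, which matched 70 genes (0.347%). The stem-loop lay wholly inside a peak in 7 genes, the same 7 whose transcript end was covered. It ends only 3 to 11 bases before that end, so this count adds nothing to the cover of the end. Peaks of 645 to 1089 bases do not resolve an element of 16 bases. Peak midpoints lay from 8 bases before the stem-loop centre at H3C2 (-8.0) to 315 bases past it at H3C7, with a median of 72.5 bases past it.

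The peaks over the 7 transcripts ran from inside the transcript to beyond its end. H3C1 (26020679 to 26021186 on chromosome 6, plus strand) had a peak of 930 bases from 26020717 to 26021646, with a −log10 q of 5.06. The −log10 q comes from the authors' peak calling and is higher for a smaller q-value. The midpoint of the H3C1 peak lay 502.5 bases from the transcript start and at -4.5 bases from its end, so that the peak was centred almost on the end. Peaks covered 92.5% of the H3C1 transcript and reached 460 bases past it.

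H3C2 (26031817 to 26032327, minus strand) had the strongest peak of the 10 genes. It spanned 740 bases from 26031471 to 26032210 at a −log10 q of 14.5, rank 22 among all 6368 peaks. Its midpoint lay at -23.5 bases from the transcript end, and it covered 77.1% of the transcript. The H3C2 peak stood well apart from the other H3 peaks, whose −log10 q did not exceed 5.34.

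H3C3 (26045612 to 26046097, plus strand) had the widest H3 peak, 1089 bases from 26045613 to 26046701, at a −log10 q of 3.91. It began 1 base after the transcript start, covered 99.8% of the transcript and reached 604 bases beyond it. The H3C3 midpoint lay 60 bases past the end, the median position of the 7 peaks. Although this peak comes within 1 base of the start, all of its reach beyond the gene was on the downstream side.

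H3C7 (26250370 to 26250863, minus strand) had the weakest and most displaced peak. It spanned 724 bases from 26249704 to 26250427 at a −log10 q of 1.51, rank 2586 of all peaks, and covered the last 11.7% of the transcript. Its midpoint lay 304.5 bases past the transcript end. The H3C7 peak also lay within 1000 bases of ENSG00000291336 and ENSG00000291338, and was nearest to H3C7 among protein-coding genes.

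The remaining 3 genes with a peak lie together in a second cluster of histone genes, more than a megabase further along the chromosome. H3C10 (27777829 to 27778314, plus strand) had a peak of 990 bases from 27777974 to 27778963 at a −log10 q of 5.07, with its midpoint 154.5 bases past the end. H3C11 (27839623 to 27840124, minus strand) had one of 645 bases from 27839147 to 27839791 at 2.49, with its midpoint 154 bases past the end. These neighbours in position, with nearly equal midpoints, differed in how much of the transcript was covered, 70.2% at H3C10 and 33.7% at H3C11. H3C12 (27858093 to 27858604, minus strand) had a peak of 852 bases from 27857638 to 27858489 at 5.34, centred 29.5 bases past the end and covering 77.5% of the transcript. In order of −log10 q the genes were H3C2, H3C12, H3C10, H3C1, H3C3, H3C11 and H3C7. H3C12, H3C10 and H3C1 lay close together, and with no value per replicate their order is not resolved.

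**Figure D1:**
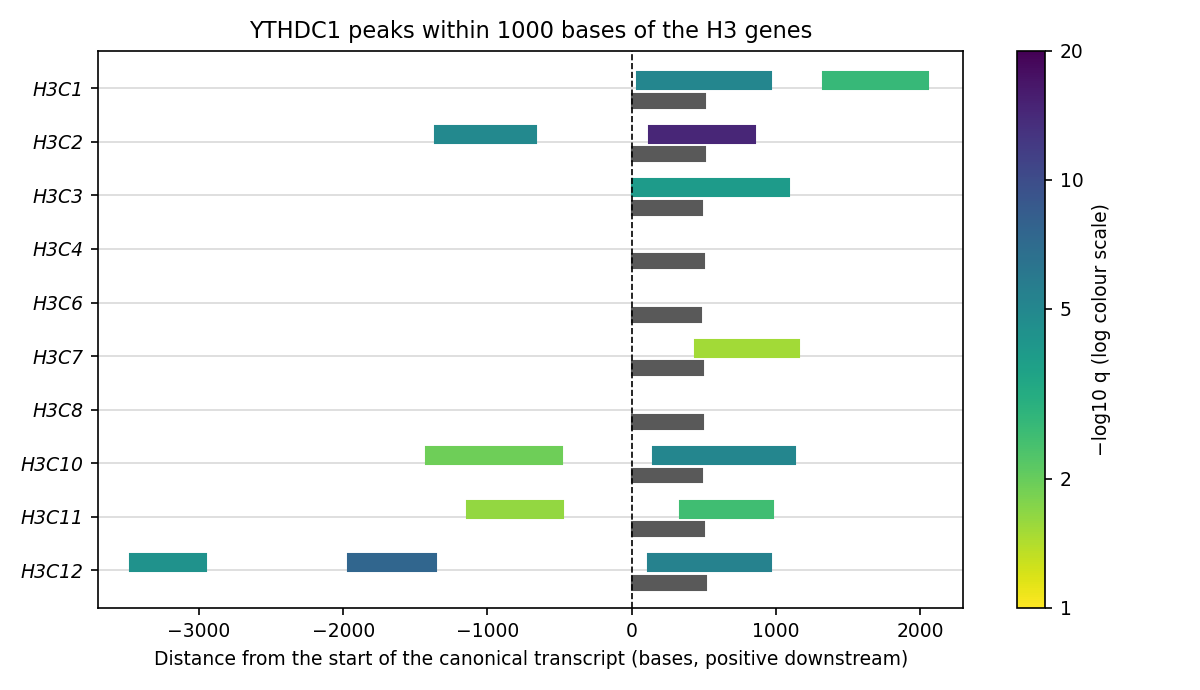
YTHDC1 peaks (coloured bars, colour giving −log10 q on a log scale) within 1000 bases of each H3 gene, by distance in bases from the start of the canonical transcript (grey bars), with transcription running to the right. In 7 genes 1 peak begins after the start and runs past the end, and the 6 other bars lie over neighbouring histone genes.

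Position and −log10 q of the 7 peaks over transcripts have no common scale and are only set side by side. These peaks were picked for overlapping a short transcript, which limits where a midpoint can lie. Their midpoints lay 486.5 to 797.5 bases from the start (median 545, SD 110 over genes) and -23.5 to 304.5 bases from the end (median 60, SD 116). Upstream edges lay 1 to 436 bases inside the transcript (median 117), and downstream edges 346 to 666 bases beyond its end (median 476). The −log10 q ranged over the same genes from 1.51 to 14.5 (median 5.06). All 13 peaks had a q-value under 0.05.

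Starts of the H3 genes were not covered. The start base lay in a peak in 0 of the 10 genes, against 5.81% of all 20163 protein-coding genes. For 10 genes a count of 0 is near that share, so it does not set the H3 genes apart. A peak overlapped the window of 200 bases on both sides of the start in 5 of the 10 genes, H3C1, H3C2, H3C3, H3C10 and H3C12, against 11.7% of protein-coding genes, and in each case it entered the window from the downstream side. No midpoint lay in the window. With a window of 100 bases, 2 of these genes, H3C1 and H3C3, were still overlapped.

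Ends of the H3 genes were covered in 7 of the 10, against 0.575% of protein-coding genes. In all, 116 protein-coding genes had the end of the canonical transcript in a peak. Of these, 38 were replication-dependent histone genes, the 7 H3 genes among them. A peak within 1000 bases, the looser count, was found for the same 7 of 10 H3 genes and for 25.1% of protein-coding genes. In long genes the start and the end are far apart, so the 457 protein-coding non-histone genes of at most 1000 bases are the closer background in length. That limit was set on annotated gene bounds, which are longer at H3C6 (3275 bases), H3C10 (1250) and H3C12 (2792). Of these short genes 4.38% had a peak within 1000 bases, 1.97% had their start base in a peak and 1.09% had their end in one.

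Position by position, the cover of the H3 genes rose from the start towards the end. The share of the 10 H3 genes covered was 0% at the start, reached 70.0% between 450 and 850 bases after it, and was at the same level from 50 bases before the end (-50) to 325 bases after it. The 52 genes of the H4, H2A, H2B and H1 families were covered in 5.77% at the start and in 59.6% at the end, with a maximum of 63.5% between 75 and 150 bases past the end. Among the 457 short genes the share never exceeded 2.41%, a level they reached between 125 and 225 bases after the start.

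**Figure D2:**
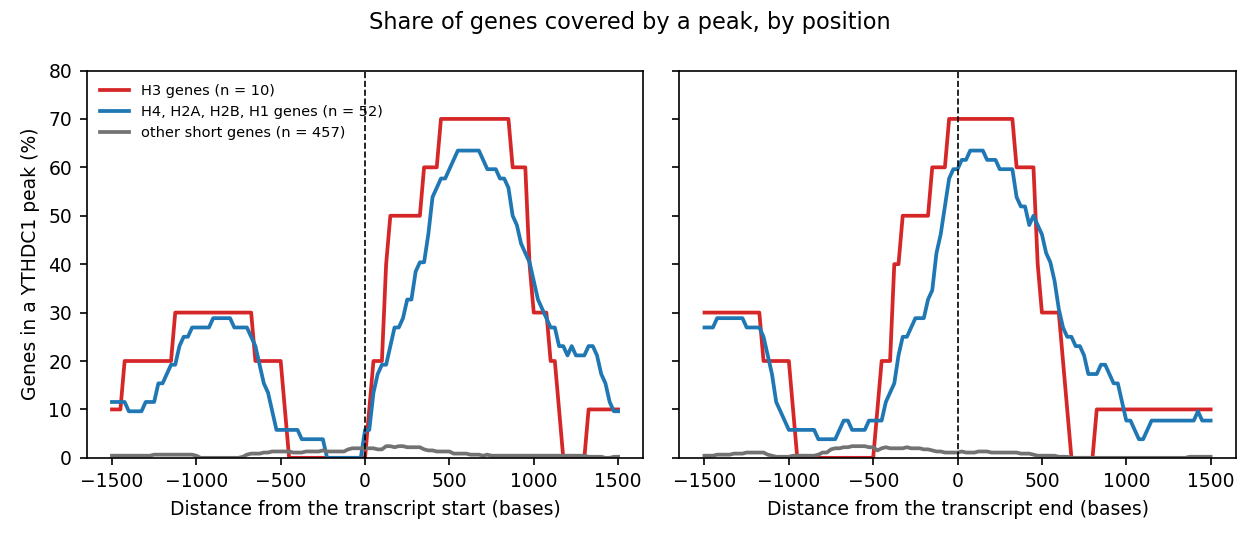
Percent of genes (y axis) with a YTHDC1 peak at each distance in bases from the transcript start (left) and end (right), in steps of 25 bases, for the 10 H3 genes (red), 52 genes of the other histone families (blue) and 457 non-histone genes of at most 1000 bases (grey). The H3 line is at 0% at the start and at 70.0% over the end.

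The other 6 of the 13 peaks belonged to neighbours. Of these, 5 lay upstream and 1 downstream of the H3 gene, each was nearer to another histone gene, and each covered the transcript end of that gene. Downstream of H3C1 lay a peak over H4C1 (26022004 to 26022734, −log10 q 2.69), which encodes histone H4. Upstream of H3C2 lay one over H2AC4 (26032990 to 26033693, 4.88), an H2A gene. The peak upstream of H3C10 lay near H2AC13 and H2BC13 (27776400 to 27777346, 1.93), and the one upstream of H3C11 lay over H4C13 (27840599 to 27841265, 1.63). H3C12 had a pair upstream, over H2AC17 (27859958 to 27860571, 7.56) and H2BC17 (27861558 to 27862082, 4.41), at midpoints of -1660.5 and -3216 bases. These come within reach because the annotated bounds of H3C12 span 2792 bases with a longer isoform, against 512 bases for its canonical transcript. Over all 13 peaks the median midpoint was 502.5 bases from the H3 start (SD 1318) and -4.5 bases from the H3 end, a mixture of H3 peaks and peaks of neighbours.

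By location, 4 of the 7 H3 genes of the first cluster, H3C1 to H3C8, and 3 of the 3 of the second, H3C10 to H3C12, had a peak. The genes without one all lie in the first cluster. The nearest peak was 7382 bases from H3C4 (26197012 to 26197514, minus strand), 7560 bases from H3C6 (26225363 to 26225844, plus strand) and 1672 bases from H3C8 (26271146 to 26271641, minus strand). No count of reads is given for genes without a peak, so how far they lay under the caller's limit is not known.

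H3 peaks were wide and strong for this data set. The 7 peaks over transcripts had a median width of 852 bases (645 to 1089) and all exceeded 478 bases, the upper quartile of the 6368 peaks, whose median was 348. Their median −log10 q of 5.06 stood against 1.33 for all peaks, and 6 of the 7, all but H3C7, exceeded the upper quartile of 1.92. They were also poorer in G and C, with a median of 48.3% (47.0 to 53.2) against 61.2% for all peaks. The ratio of observed to expected CpG was 0.728 against 0.690.

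**Figure D3:**
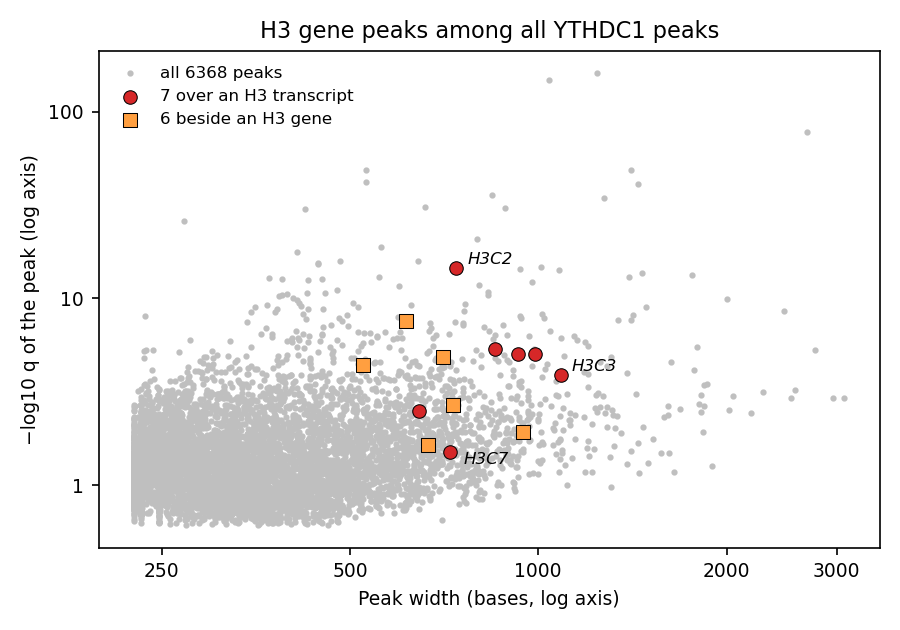
−log10 q (y axis, log scale) against width in bases (x axis, log scale) for all 6368 YTHDC1 peaks (grey), the 7 peaks over an H3 transcript (red circles) and the 6 beside an H3 gene (orange squares). All 13 lie to the right of the median width of 348 bases, and H3C2 has the highest −log10 q of them, 14.5.

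Histone genes of the other core families had peaks at the same end. The end was covered in 11 of 14 H4 genes, 7 of 17 H2A genes, 9 of 16 H2B genes and 4 of 5 genes of the linker histone H1. Median midpoints lay 171 bases past the end for H4, 214 for H2A, 169 for H2B and 15.8 for H1, beside 60 for H3. Median −log10 q was 5.60 for H4, 4.88 for H2A, 3.10 for H2B and 13.2 for H1, beside 5.06 for H3. Median width was 877 bases for H4, 704 for H2A, 652 for H2B and 1431.5 for H1, beside 852 for H3. Ranges overlapped throughout, with midpoints from -6 to 456 bases in H4, -21.5 to 532 in H2A and 90.5 to 412.5 in H2B, and the H3 midpoints lay within the range of the H4 and H2A genes except for H3C2, at -23.5.

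The strongest peak of each other family lay above those of all H3 genes but H3C2, and that of H4C3 lay above H3C2 as well. In H4 these were H4C3 (14.8) and H4C2 (10.5), in H2A they were H2AC11 (14.2) and H2AC17 (7.56), and in H1 they were H1-4 (13.7) and H1-3 (13.4). The H2B genes with the highest values were H2BC12 (6.16) and H2BC10 (4.94). The start base was in a peak in 3 H4 genes and in no gene of the H2A, H2B or H1 families. Stem-loops found with the core CTTTTNAG were held by 92.9% of H4, 82.4% of H2A, 87.5% of H2B and 100% of H1 genes, against 0.0348% of genes outside these families.

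**Figure D4:**
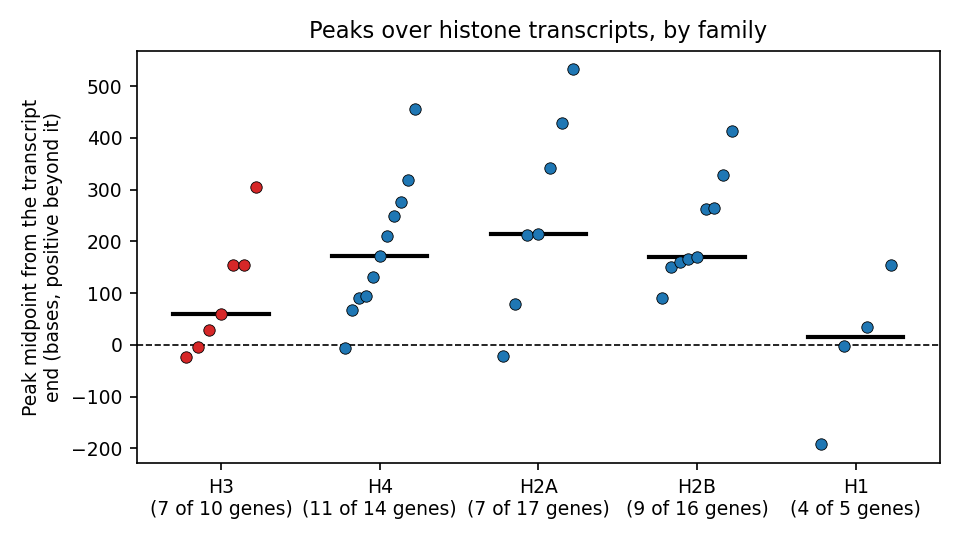
Distance of the peak midpoint from the transcript end in bases (y axis, positive beyond the end) for each gene with a peak over its transcript, by histone family (x axis, with the number of genes plotted), and the median as a black line. Medians run from 15.8 bases in H1 to 214 in H2A, with H3 at 60.

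Protein sequence could not distinguish the H3 genes with and without a peak, as all 10 share it. The 10 genes encode 1 and the same protein of 136 residues, the first methionine included, from 10 different coding sequences of 408 bases. Identity between pairs of coding sequences ran from 80.9% (H3C2 and H3C12) to 88.2% (H3C6 and H3C11), with a median of 85.5%. Of 134 positions that differed in any gene, 124 were the third base of a codon. A stretch of 60 bases from the coding sequence, positions 121 to 180, shows how far genes for the same protein differ in DNA, which bears on whether reads can be placed. Positions that vary among the 10 genes, 22 in this stretch, are in capitals. The genes are those with the strongest and the weakest peak and the 3 without one.
H3C2: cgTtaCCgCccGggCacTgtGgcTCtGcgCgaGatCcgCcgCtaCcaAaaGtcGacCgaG
H3C7: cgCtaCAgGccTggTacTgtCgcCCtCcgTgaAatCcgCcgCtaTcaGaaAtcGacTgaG
H3C4: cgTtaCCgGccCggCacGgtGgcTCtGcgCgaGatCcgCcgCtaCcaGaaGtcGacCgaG
H3C6: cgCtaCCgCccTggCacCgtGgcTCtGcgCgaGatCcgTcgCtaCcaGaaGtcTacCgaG
H3C8: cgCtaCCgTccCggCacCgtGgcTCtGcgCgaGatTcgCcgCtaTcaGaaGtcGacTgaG

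With this variation, little of the H3 transcripts was repeated elsewhere. Of their 31-mers, 0% to 6.77% occurred at another place in the assembly, and none of their 50-mers did. The genes without a peak had 6.77% (H3C4), 2.88% (H3C6) and 1.502% (H3C8). Genes with a peak ran from 0% at H3C1 and H3C12 to 6.44% at H3C2, so that H3C6 and H3C8 lay within this range and H3C4 just above it. In the peaks over transcripts the share had a median of 2.74% (0 to 10.9). The 10 H3 genes were among 43 replication-dependent histone genes with under 20% repeated 31-mers, of which 27 had the end in a peak. With 20% to 80% repeated it was 9 of 12 genes, and with 80% or more 2 of 10. The part of read placement in these counts was not tested.

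**Figure D5:**
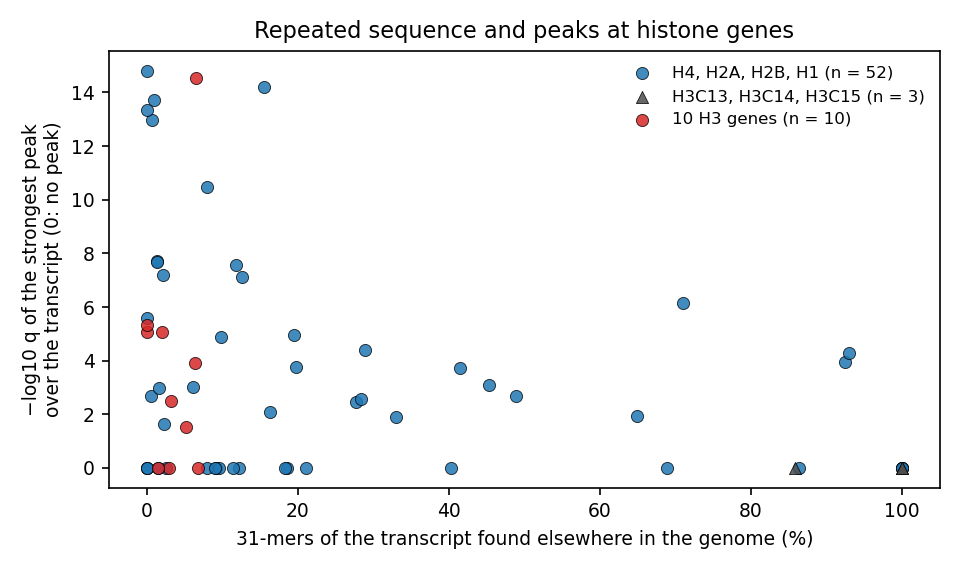
−log10 q of the strongest peak over each transcript (y axis, 0 where no peak was called) against the percent of the transcript's 31-mers found elsewhere in the genome (x axis) for the 10 H3 genes (red), the 52 genes of the other families (blue) and H3C13, H3C14 and H3C15 (dark triangles). The 10 H3 genes lie at or below 6.77%, with and without peaks, and the triangles at 85.9% or more with none.

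Other H3 genes gave a different picture. H3C13, H3C14 and H3C15 on chromosome 1, which encode a replication-dependent H3 that differs from the protein above at 1 residue, had no peak within 1000 bases. Their transcripts were 85.9%, 100% and 100% repeated. Their nearest peaks were at least 634575 bases away. H3-3A, one of the genes of the replacement histone deposited outside S phase, had no peak within 38467 bases, and the testis gene H3-4, as well as H3-5 and H3-7, had none within 1000 bases.

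H3-3B, the other gene of the replacement histone, whose mRNA is polyadenylated, had 3 peaks. The strongest (73775107 to 73775821 on chromosome 17, −log10 q 3.39) had its midpoint 396 bases from the start, in the first part of a gene of 3346 bases. Another (73772314 to 73772899, 1.78) covered the transcript end, and the last (73781167 to 73781637, 1.26) lay at -5542 bases, upstream of the canonical start. CENPA, the centromeric H3 variant, had 1 peak (27008208 to 27008495 on chromosome 2, 0.864) at -572.5 bases from its start. That peak and the last one of H3-3B had a q-value above 0.05. H3-3B thus had separate peaks in its first part and over its end.

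Downstream of the transcript end, the first 60 bases, where the element for the U7 ribonucleoprotein is usually found, lay in a peak over their full length in all 7 genes with a peak, and in 0 bases in H3C4, H3C6 and H3C8. A short run of letters, GCTGT, was looked for here after the data were seen, on the transcribed strand only. It occurred in 7 of the 10 genes, against 8.36% of the same windows of 20139 protein-coding genes. It was absent from H3C3, H3C7 and H3C10, which had peaks, and present in the 3 genes without. This exact run of letters does not measure the U7 element, and its relation to the peaks was not tested. Sequences are shown for the strongest peak, for 1 gene with a peak and without these letters, and for 1 without a peak, with GCTGT in capitals, from chr6:26031757-26031816 (minus strand), chr6:26046098-26046157 (plus strand) and chr6:26271086-26271145 (minus strand).
H3C2: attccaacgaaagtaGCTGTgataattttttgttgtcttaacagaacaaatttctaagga
H3C3: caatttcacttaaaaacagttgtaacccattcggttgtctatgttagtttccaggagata
H3C8: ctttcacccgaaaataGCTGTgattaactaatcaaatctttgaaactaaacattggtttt

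Upstream of the start, no base of the last 150 bases lay in a peak in any of the 10 genes. These proximal promoters resembled each other in their letters. CCAAT was found in 10 of 10, against 26.4% of 20142 promoters of the same length, and TATAAA in 7 of 10, against 6.72%, each searched on both strands. The motifs do not overlap each other, and TTTATAAA in H3C7 holds TATAAA on both strands. All CCAAT matches were on the strand of the gene, while the TATAAA match of H3C4 was on the other strand only. TATAAA was absent from H3C3, H3C6 and H3C8, of which H3C3 had a peak over the transcript. This concerns the exact letters TATAAA. The variant TATATA was planned too but not counted, and the promoters of H3C4, H3C6 and H3C8 hold it. The last 120 bases before the start are shown for the genes with the strongest and the weakest peak and for H3C8, with CCAAT and TATAAA (or TTTATA, its other strand) in capitals, from chr6:26032328-26032447 (minus strand), chr6:26250864-26250983 (minus strand) and chr6:26271642-26271761 (minus strand).
H3C2: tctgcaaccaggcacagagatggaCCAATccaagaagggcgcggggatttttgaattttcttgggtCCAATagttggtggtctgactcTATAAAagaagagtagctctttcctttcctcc
H3C7: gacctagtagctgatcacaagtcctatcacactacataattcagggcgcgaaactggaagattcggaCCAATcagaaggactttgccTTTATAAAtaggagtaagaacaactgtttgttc
H3C8: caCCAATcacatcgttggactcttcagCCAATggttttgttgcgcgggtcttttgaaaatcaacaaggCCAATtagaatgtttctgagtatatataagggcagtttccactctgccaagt

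Genes that act on histone mRNA and histone genes were examined beside the H3 genes. Of 22 such genes, 8 had a peak within 1000 bases, or 36.4%, against 25.1% of protein-coding genes. At an annotated start 5 had one, or 22.7%, against 15.7% of protein-coding genes. CPSF2 (−log10 q 1.45), a subunit of the cleavage complex, was the strongest. It was followed by NCBP2 (1.39), which binds the cap, ZNF473 (1.39), a U7-associated zinc finger protein, SRRT (0.997), which links the cap to 3' end formation, and ERI1 (0.642), an exonuclease that binds the stem-loop. SYMPK (0.745), CCNE1 (0.759) and NCBP1 (1.10) had a peak within 1000 bases but not at a start. SLBP, the stem-loop binding protein, had its nearest peak 452018 bases away, and NPAT, the coactivator of histone genes in S phase, 147589 bases away.

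Among 18 genes for H3 chaperones and deposition factors, 5 had a peak at an annotated start, or 27.8%, beside the same 15.7%. They were DNAJC9 (2.68), ASF1A (1.91), IPO4 (1.54), NASP (1.36) and HIRA (1.21), which bind, import or deposit H3 with H4. RBBP4 (1.21), a subunit of the assembly factor CAF-1, had a peak within 1000 bases only. CHAF1A and CHAF1B, its other subunits, had none. All of these lay below the median −log10 q of the H3 peaks, and the highest, DNAJC9, was centred 138.5 bases after the start. The peaks of HIRA and RBBP4 had a q-value above 0.05.

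Few short non-histone genes were filled by a peak as H3C1 or H3C3 were. Genes of other histone families were filled to a like extent, such as H4C3 (100% in peaks) and H1-3 (93.8%). Among the 457 short non-histone genes, 7 had at least 50% of their bases in peaks. The highest −log10 q of these were at MRPL53 (12.2), a mitochondrial ribosomal protein gene, HRURF (5.47), C6orf226 (4.85), CCDC85B (4.33) and ENSG00000289764 (1.91). At MRPL53 the midpoint lay 203 bases after the start and at -495 bases from the end, and the end itself was not covered. Of the 5, CCDC85B alone had its end but not its start base in a peak, with the midpoint at -191.5 bases from the end.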

How the data were processed

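YTHDC1 ChIP-seq of 3 A549 replicates was used as the authors deposited it, as 1 peak set. They pooled the aligned reads and called broad peaks with MACS2 on hg19 (q-value 0.1, broad cutoff 0.25). Bowtie2 is named in the study's methods and BWA in the submitters' processing notes, and no control library is named. The single value per peak that the authors deposited is read as −log10 q, since the lowest, 0.610, lies just above 0.602, the −log10 of the cutoff. No values per sample were used here, so neither depth nor replicate error is known.

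Genes were those of GENCODE release 44 mapped to GRCh37. Distances follow the gene's strand from the canonical transcript, and a peak was put to a gene if it overlapped the annotated bounds extended by 1000 bases. Percentages of all genes are counts of the same measure, with no test. All sequences, repeated 31-mers and 50-mers were read from the GRCh37 genome. Members, gene lists and measures were chosen with earlier results of these data known. Genes named are the 10 H3 genes, other H3 genes and genes sharing their peaks. By −log10 q, up to 2 per other family and 5 short genes at least 50% in peaks are named. From the gene lists, SLBP, NPAT and every gene with a peak within 1000 bases are named. The planned limit of 6 per list was passed for genes that act on histone mRNA and histone genes, with 8. The start base, transcript end, wider stem-loop core and GCTGT were added after the data were seen, and CHAF1A and CHAF1B were named after their values were seen. Scripts were tested on simulated data and used Python 3.11.15, numpy 2.4.6, pandas 2.3.3, numba 0.67.0, pysam 0.24.0 and matplotlib 3.10.9.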

Additional observations from a re-analysis of the deposited data

How the results depend on the processing

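Of 60 alternatives tried on 12 values, 56 left a count within 1.5 times or a median within the SD over peaks or genes. That margin is wide for midpoints, whose SD over the 13 peaks was 1318 bases from the start and 1321 from the end. A midpoint at -4.5 bases from the end thus counted as unchanged at 60, with the strongest peak of each gene. The median covered share, 51.9%, likewise counted as unchanged at 34.9% with gene bounds (SD 41.2). The 4 other alternatives concern the start and the gene body. The count of 5 H3 genes with a peak at the start became 0 with the midpoint required inside the window, 2 with a window of 100 bases and 0 for the start base alone, the last chosen after the data were seen. The count of 4 genes with a midpoint inside the gene body, taken over annotated gene bounds, became 2 with canonical transcript bounds. The 7 genes with a peak within 1000 bases numbered 7 with the 3317 peaks of a q-value under 0.05, with the 3184 strongest peaks and at a distance of 0 bases, and 8 at 2000 bases. Both filters by q-value keep all 13 H3 peaks, whose lowest −log10 q was 1.51, so they could not change any H3 value. No replicate could be left out, as the replicates were pooled before calling, and there is no depth per gene, so an absent peak sets no upper limit on occupancy. No paired analysis was possible because the 3 replicates form 1 group.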
